A study of Mus musculus with 4 samples.

Results

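The complement genes described here are C3, C4b, Cfb, Serping1, C1ra and C1s1, 6 of the 32285 genes of the matrices. They were taken by name from a list that was chosen with earlier results of these data known. Counts of them beside the share of all genes are thus a description and not a test. Complement is a cascade of plasma and tissue proteins in which one protease activates the next. C1r and C1s are the paired serine proteases of the C1 complex that start the classical pathway, C1s cleaves C4 and C2, and the convertases that result cleave C3, on which the pathways converge. Factor B supplies the protease of the alternative pathway's convertase, and C1 inhibitor, the product of Serping1, blocks C1r and C1s and other serine proteases. The liver makes most of the circulating components, while fibroblasts and other mesenchymal cells also make several of them, and interferons and inflammatory cytokines are known to raise many of these genes.

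They were followed in C3H10T1/2 clone 8, a mouse line of mesenchymal progenitor cells, by single-cell RNA sequencing on the 10X Genomics platform, with 1 library for each of 4 conditions. The H3WT cells carried a tagged wild-type histone H3 transgene and the H3R26C cells the same transgene with arginine 26 replaced by cysteine, both from a lentiviral vector kept under puromycin, beside the endogenous H3. Each was given DMSO as the vehicle or 5-Aza (5-Azacytidine), a DNA methyltransferase inhibitor that is used to start differentiation of this line. The exposure to 5-Aza was brief and the treated cells were collected weeks later. When the DMSO cells were collected is not given, so time in culture and treatment cannot be told apart. Of the barcodes with at least 5000 UMIs (unique molecular identifiers, each standing for 1 RNA molecule), at least 1500 genes and at most 20% mitochondrial UMIs, there were 3710 for H3WT DMSO, 5993 for H3WT 5-Aza, 4727 for H3R26C DMSO and 7619 for H3R26C 5-Aza. A cell was called interferon-high when at least 4 of the 9 interferon-stimulated genes Irf7, Oasl2, Usp18, Ifi44, Isg15, Ifit1, Ifit3, Rtp4 and Xaf1 were detected. That state held 113 cells (3.05%), 640 cells (10.7%), 275 cells (5.82%) and 4054 cells (53.2%) in the same order of libraries. These shares depend on depth. With each cell drawn at random down to 5000 UMIs they were 0.431%, 2.69%, 0.910% and 24.5%.

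With 1 library per condition no difference between conditions could be tested. Levels are given in CPM, the UMIs of a gene per 1000000 UMIs of the group, with 95% exact Poisson intervals, and ratios of CPM with 95% exact binomial intervals. Both cover counting error alone, since cells of 1 library are not replicates. A gene was counted as past 2-fold when its ratio, with 1 CPM added to both levels, reached 2 in either direction and its mean level in the groups compared was at least 5 CPM. Cfb stayed under that minimum in each comparison, so 5 of the 6 genes entered the counts. Shares of cells with a UMI were taken after each cell was thinned to 5000 UMIs, because the median depth ran from 13123 to 22420 UMIs per cell. Of 39143 distinct barcodes, 745 occurred in more than 1 library, and 854 of the 22049 kept cells had such a barcode. Leaving these cells out changed 1 count of genes past 2-fold, given beside it below. Of 10 mesenchymal progenitor markers 8 reached 20 CPM, and the list summed to between 13871 and 14931 CPM. Some lists of other cell types were low throughout and still higher with 5-Aza in both genotypes. The 9 macrophage markers summed to 9.67 CPM in H3WT DMSO, 31.2 in H3WT 5-Aza, 9.90 in H3R26C DMSO and 42.6 in H3R26C 5-Aza, with C1qa, C1qb and Tyrobp at 0 in every library and Fcer1g at 3, 1003, 10 and 1972 UMIs. In the same order the 5 hepatocyte markers summed to 0.0576, 2.81, 0.0238 and 6.04 CPM, nearly all of it Ahsg with 5-Aza, while Alb and Ttr were at 0 in every library. The 5 endothelial markers summed to 0.311, 3.06, 0.428 and 9.37 CPM, and the 5 T and B cell markers to at most 1.60 CPM. The part of such cells in the complement levels was not tested. The 12 skeletal muscle markers summed to 23.7 CPM in H3WT DMSO, 16.8 in H3R26C DMSO, 2172 in H3WT 5-Aza and 2660 in H3R26C 5-Aza, so muscle RNA moved with the treatment in both genotypes. The 10 adipocyte markers summed to 91.8, 193, 319 and 212 CPM in the same order.

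On GRCm38, the build of the count matrices, C3 lies at chr17:57203970-57228136, C4b at chr17:34728380-34743882 and Cfb at chr17:34856374-34862518, each on the minus strand. Serping1 lies at chr2:84765387-84775444 on the minus strand. C1ra at chr6:124512405-124523443 on the plus strand and C1s1 at chr6:124530345-124542359 on the minus strand are neighbours. C4b, C1ra and C1s1 have near-identical relatives, C4a, C1rb and C1s2, so reads can be hard to assign to a single gene. Reads that were assigned to neither gene of a pair are missing from its sum too. The relative supplied between 2.37% and 4.51% of the UMIs of the C4 pair, between 3.28% and 6.15% of the C1r pair and between 6.99% and 7.74% of the C1s pair. C1s1 overlaps the antisense gene Gm16567 and Cfb overlaps Gm20547.

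The start regions are shown because the treatment given removes DNA methylation and because the interferon and acute-phase pathways act through short sequence motifs. RefSeq regions of GRCm38.p6, from 250 bases before to 50 bases after the start, were available for 3 of the 6 genes, C3 (chr17:57228087-57228386, minus strand), C1ra (chr6:124512371-124512670, plus strand) and C1s1 (chr6:124542310-124542609, minus strand, the first of its 2 entries). C4b, Cfb and Serping1 had no entry. For C1ra the gene start given above, 124512405, lies within the window and before the RefSeq start. Much of the C1ra window is thus inside the gene as placed above. The regions are printed on the strand of the gene, with the motifs that were found in capitals.
C3: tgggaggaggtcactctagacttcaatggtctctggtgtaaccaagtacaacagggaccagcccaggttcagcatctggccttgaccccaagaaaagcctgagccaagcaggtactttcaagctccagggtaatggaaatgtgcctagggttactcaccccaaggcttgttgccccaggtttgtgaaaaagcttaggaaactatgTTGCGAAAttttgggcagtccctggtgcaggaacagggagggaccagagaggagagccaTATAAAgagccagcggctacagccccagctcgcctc
C1ra: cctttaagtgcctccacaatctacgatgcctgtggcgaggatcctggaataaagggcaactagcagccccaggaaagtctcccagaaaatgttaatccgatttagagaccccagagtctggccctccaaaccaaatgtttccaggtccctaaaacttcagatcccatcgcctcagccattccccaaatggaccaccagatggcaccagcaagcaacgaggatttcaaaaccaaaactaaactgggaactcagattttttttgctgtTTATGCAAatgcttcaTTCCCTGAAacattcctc
C1s1: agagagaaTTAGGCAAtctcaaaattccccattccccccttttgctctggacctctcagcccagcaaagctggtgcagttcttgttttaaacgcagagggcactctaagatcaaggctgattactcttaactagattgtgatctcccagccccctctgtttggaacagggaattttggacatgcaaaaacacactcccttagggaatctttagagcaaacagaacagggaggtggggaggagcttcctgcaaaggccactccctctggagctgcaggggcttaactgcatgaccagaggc
The motifs searched on both strands were the core of the interferon-stimulated response element GAAANNGAA, the gamma-activated sequence TTCNNNGAA, the C/EBP motif TTGCNNAA and the TATA box TATAAA. C3 held a C/EBP match at position -45 and a TATA box at position 15, counted with the first transcribed base of the RefSeq entry as 1 and no position 0. C1ra held a C/EBP match at position 17 and a gamma-activated sequence at position 33, and the same pair stood at -135 and -119 of the RefSeq start of C1rb. C1s1 held a C/EBP match at position -242. Of 32851 such regions in the mouse genome, 8.56% held the response element core, 8.30% the gamma-activated sequence, 10.8% the C/EBP motif and 13.6% the TATA box. The CpG sites numbered 3 in C3, 5 in C1ra and 1 in C1s1, against a median of 7 over these regions. As few or fewer were held by 31.4%, 43.6% and 14.1% of the 32851 regions, in the same order. The matches describe letters in these windows and were not linked to binding or methylation.

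C1ra and C1s1, the proteases of the C1 complex, moved together across the libraries. C1ra was at 76.8 CPM (74.9 to 78.6) in H3WT DMSO, 65.0 CPM (63.3 to 66.8) in H3WT 5-Aza, 90.1 CPM (88.0 to 92.1) in H3R26C DMSO and 44.8 CPM (43.5 to 46.1) in H3R26C 5-Aza. C1s1 followed the same order, at 87.8 CPM (85.9 to 89.8), 79.1 CPM (77.2 to 81.0), 108 CPM (106 to 110) and 67.3 CPM (65.8 to 68.9). Both were thus highest in H3R26C DMSO and lowest in H3R26C 5-Aza, with no overlap of the intervals between libraries. After thinning, a UMI of C1ra was found in 32.7%, 27.6%, 36.9% and 20.2% of cells and of C1s1 in 34.0%, 31.7%, 40.5% and 27.9%, in the order H3WT DMSO, H3WT 5-Aza, H3R26C DMSO and H3R26C 5-Aza. Before thinning these shares ran from 40.0% to 75.7% for C1ra and from 49.5% to 76.5% for C1s1. Adding the relatives C1rb and C1s2 left this order of libraries in place, with the C1r pair between 46.3 and 95.4 CPM and the C1s pair between 72.4 and 117 CPM.

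C4b, which encodes the C4 that C1s cleaves, differed between genotypes more than between treatments in all kept cells. It was at 19.8 CPM (18.9 to 20.8) in H3WT DMSO and 21.5 CPM (20.5 to 22.5) in H3WT 5-Aza, against 13.6 CPM (12.8 to 14.4) in H3R26C DMSO and 13.5 CPM (12.9 to 14.2) in H3R26C 5-Aza. The intervals overlapped within each genotype and not between genotypes. Thinned cells with a C4b UMI were 9.84% and 10.0% of the H3WT libraries and 6.77% and 6.75% of the H3R26C libraries. Without the cells with muscle or mitosis RNA described below, the log2 ratio of C4b in H3R26C against H3WT with 5-Aza was -0.26. With 5-Aza against DMSO in H3R26C it was then 0.247, close to that genotype difference in size.

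C3, the component on which the pathways converge, was lowest in H3WT DMSO, at 19.7 CPM (18.7 to 20.6). Its level was 67.1 CPM (65.4 to 68.9) in H3R26C DMSO, 83.9 CPM (81.9 to 85.8) in H3WT 5-Aza and 93.3 CPM (91.5 to 95.1) in H3R26C 5-Aza. A C3 UMI was found in 6.79% of thinned H3WT DMSO cells and in 17.8%, 19.3% and 22.5% of cells of H3WT 5-Aza, H3R26C DMSO and H3R26C 5-Aza. C3 was spread unevenly over cells, more than its Poisson intervals allow for. The variance of its UMIs per thinned cell was 2.06 times the mean in H3WT DMSO, 4.77 times in H3WT 5-Aza, 2.90 times in H3R26C DMSO and 4.12 times in H3R26C 5-Aza, whereas C1ra stayed between 1.08 and 1.19 times. The highest single cell held 24 C3 UMIs of 5000, in H3WT 5-Aza.

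Cfb, which encodes factor B, was rare. It was counted 21 times in H3WT DMSO (0.242 CPM, 0.150 to 0.370), 79 times in H3WT 5-Aza (0.937 CPM, 0.742 to 1.17), 23 times in H3R26C DMSO (0.274 CPM, 0.173 to 0.411) and 422 times in H3R26C 5-Aza (3.81 CPM, 3.46 to 4.19). At most 1.61% of thinned cells of any library held a UMI. The variance of Cfb per thinned cell was 1.74 times the mean in H3R26C 5-Aza, so its interval there is too narrow as well. The highest level of Cfb was in H3R26C 5-Aza and the DMSO libraries overlapped.

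Serping1, the inhibitor of C1r and C1s, was at 9.76 CPM (9.12 to 10.4) in H3WT DMSO, 20.7 CPM (19.7 to 21.7) in H3WT 5-Aza, 19.8 CPM (18.9 to 20.8) in H3R26C DMSO and 58.9 CPM (57.5 to 60.3) in H3R26C 5-Aza. The middle pair overlapped, and H3R26C 5-Aza stood above the other libraries. Thinned cells with a Serping1 UMI were 3.67%, 8.16%, 8.42% and 18.7% in the same order. The variance of Serping1 per thinned cell was 2.26 times the mean in H3R26C 5-Aza, so its interval there is too narrow for the spread between cells. In H3R26C 5-Aza the inhibitor was at its highest and C1ra and C1s1 at their lowest. Without the cells with muscle or mitosis RNA described below, C1ra was still lowest there, at 57.2 CPM, whereas C1s1, at 87.4 CPM (84.2 to 90.7), overlapped H3WT 5-Aza, at 85.5 CPM (82.5 to 88.7).

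**Figure D1:**
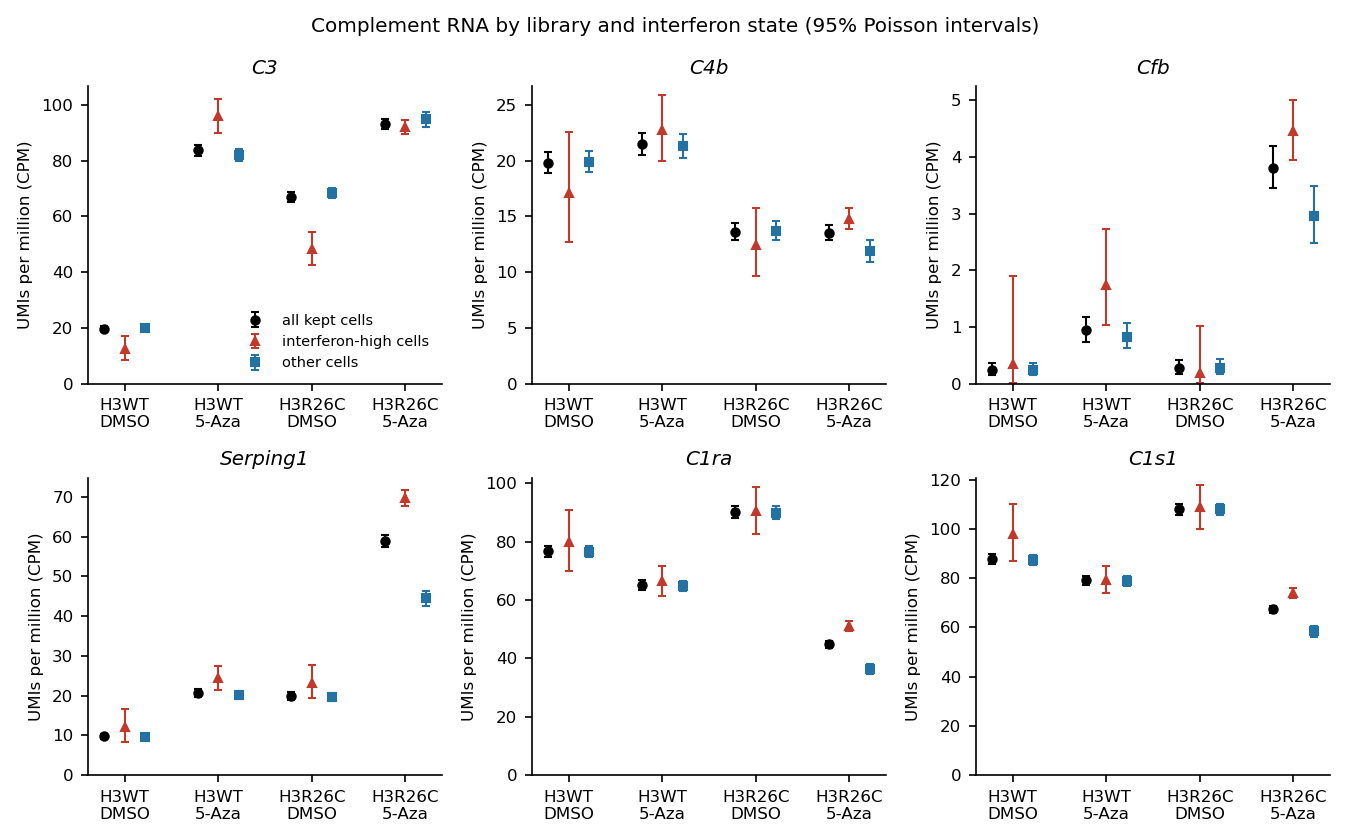
Levels of the 6 complement genes in CPM (vertical axes from 0) in each library, for all kept cells (circles), interferon-high cells (triangles) and other cells (squares), with 95% Poisson intervals. Serping1 reached 58.9 CPM in H3R26C 5-Aza against 9.76 to 20.7 CPM elsewhere, while C1ra and C1s1 were lowest there, at 44.8 and 67.3 CPM.

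To see what the treatment went with in each genotype, 5-Aza was set against DMSO. In H3WT, C3 was 4.27 times higher with 5-Aza (4.05 to 4.50) and Serping1 2.12 times (1.95 to 2.30). These were 2 of the 5 genes counted, both higher, against 2.53% of 9988 genes past 2-fold in either direction. C1ra was 0.847 times (0.818 to 0.878) and C1s1 0.901 times (0.872 to 0.931) its level with DMSO, and C4b 1.09 times (1.02 to 1.16). Cfb was 3.88 times higher (2.37 to 6.60), on 79 against 21 UMIs. Serping1 lay at the threshold, with a log2 ratio of 1.01 after the pseudocount.

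In H3R26C, Serping1 was 2.97 times higher with 5-Aza (2.82 to 3.14), C3 1.39 times (1.35 to 1.44) and Cfb 13.9 times (9.16 to 22.2), on 422 against 23 UMIs. C1ra was 0.497 times its DMSO level (0.480 to 0.516) and C1s1 0.623 times (0.604 to 0.643), while C4b was 0.994 times (0.919 to 1.07). Serping1 alone was counted past 2-fold of the 5 genes, where 8.15% of 10204 genes were. C1ra lay just inside the threshold at a log2 ratio of -0.99 and would be counted without the cells of shared barcodes. The levels of all genes had a median log2 ratio of -0.05 in this comparison and 0.03 in H3WT.

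The genotypes were then compared with each treatment, so that each library enters both kinds of comparison. With DMSO, C3 was 3.41 times higher in H3R26C (3.23 to 3.61), and Serping1 2.03 times (1.87 to 2.21). C3 was the 1 gene of 5 past 2-fold, against 1.64% of 9929 genes, and Serping1 lay just inside at a log2 ratio of 0.95. C1ra and C1s1 were 1.17 times (1.14 to 1.21) and 1.23 times (1.19 to 1.27) higher in H3R26C, and C4b was 0.687 times its H3WT level (0.637 to 0.741). For Cfb the ratio was 1.13 (0.599 to 2.15), an interval that holds 1.

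With 5-Aza the difference in C3 was small, at 1.11 times (1.08 to 1.15), and that in Serping1 larger, at 2.85 times (2.70 to 3.0). Serping1 was the 1 gene of 5 past 2-fold, against 6.0% of 10245 genes. C1ra, at 0.689 times (0.662 to 0.716), and C1s1, at 0.851 times (0.823 to 0.880), were lower in H3R26C, the opposite side from the DMSO libraries. C4b was again lower, at 0.629 times (0.587 to 0.674). Cfb was 4.07 times higher (3.19 to 5.24).

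**Figure D2:**
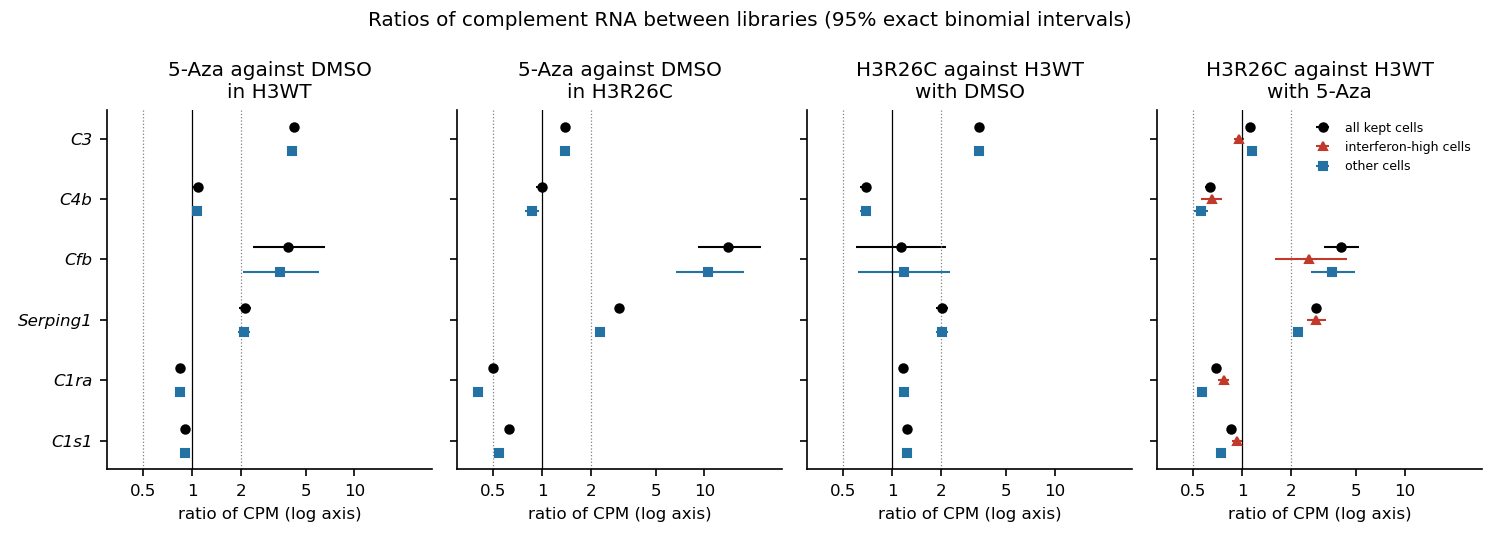
Ratios of CPM (log axis) for the 4 comparisons of libraries, in all kept cells (circles), interferon-high cells (triangles, with 5-Aza) and other cells (squares), with 95% exact binomial intervals. The solid line is a ratio of 1 and the dotted lines are 2-fold either way. C3 leads in the H3WT treatment and the DMSO genotype panels, at 4.27 and 3.41, and Serping1 and Cfb are the genes past 2 in H3R26C against H3WT with 5-Aza.

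Because interferon-high cells made up 53.2% of H3R26C 5-Aza and 10.7% of H3WT 5-Aza, the genes were read within each state. In H3R26C 5-Aza, Serping1 was at 69.6 CPM (67.6 to 71.7) in interferon-high and 44.5 CPM (42.6 to 46.4) in other cells, a ratio of 1.57 (1.49 to 1.65). C1ra was 1.40 times higher in interferon-high cells (1.32 to 1.49), C1s1 1.27 times (1.21 to 1.33), C4b 1.25 times (1.12 to 1.39) and Cfb 1.51 times (1.22 to 1.86). C3 was at 92.1 CPM against 94.9 CPM, a ratio of 0.971 (0.934 to 1.01). None of the 5 genes was past 2-fold in this library, against 1.63% of 10243 genes. Their median log2 ratio was 0.34 beside -0.01 over the genes counted. The interferon-high cells of this library were deeper, with a median of 14326.5 against 11690 UMIs.

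In H3WT 5-Aza the states were closer for the proteases. Serping1 was 1.21 times higher in interferon-high cells (1.05 to 1.38) and C3 1.17 times (1.09 to 1.25), whereas C1ra, at 1.02 (0.944 to 1.11), C1s1, at 1.01 (0.934 to 1.08), and C4b, at 1.07 (0.929 to 1.23), had intervals that hold 1. Interferon-high cells of this library were deeper, with a median of 15352 against 12918 UMIs. With states and levels from thinned cells the direction turned for Serping1, to a log2 ratio of -0.17, and stayed for C3, at 0.27. Serping1 rested there on 8 UMIs in cells with 4 to 5 interferon genes and 7 UMIs in cells with 6 to 9. C3 was at 81.9 CPM in the 127 cells with 4 to 5 genes, as in cells with 0 genes. Its higher level was in the 34 cells with 6 to 9 genes, at 188 CPM on 32 UMIs. None of the 5 genes was past 2-fold, against 0.910% of 10113 genes. In H3WT DMSO, with 113 interferon-high cells, and H3R26C DMSO, with 275, the count was again 0 of 5, against 0.917% and 0.451% of the genes. C3 was lower in the interferon-high cells of both DMSO libraries, at 12.3 against 19.9 CPM in H3WT, a ratio of 0.618 (0.431 to 0.859), and at 48.2 against 68.4 CPM in H3R26C, a ratio of 0.704 (0.620 to 0.797). Serping1 was at 12 against 9.69 CPM and at 23.2 against 19.6 CPM in these libraries, with intervals of the ratio that hold 1, and so had C4b, C1ra and C1s1 in both. Cfb rested on 1 UMI in the interferon-high cells of each DMSO library and on 18 in H3WT 5-Aza, where it was 2.10 times higher (1.17 to 3.6). In thinned cells of H3WT 5-Aza with 4 or more interferon genes Cfb had 0 UMIs, so that its direction turned there too. Those were 161 cells, too few to set a direction for Cfb. The upper limits of its level were 5.81 CPM with 4 to 5 genes and 21.7 CPM with 6 to 9.

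The differences between states in H3R26C 5-Aza depended on which cells were counted. Cells with at least 3 of the mitosis genes Top2a, Mki67, Cenpf, Ube2c, Cdk1 and Birc5 made up 3.32% and 6.14% of the H3WT cells with DMSO and 5-Aza, and 7.36% and 14.1% of the H3R26C cells. Cells with at least 6 of the 12 muscle markers were absent from the DMSO libraries and made up 5.29% of H3WT 5-Aza and 5.46% of H3R26C 5-Aza, where they were 2.99% of interferon-high and 8.28% of other cells. The mitotic share differed little between the states of H3R26C 5-Aza, at 13.7% of interferon-high and 14.6% of other cells. Both kinds of cell were poor in complement RNA in H3R26C 5-Aza. There, Serping1 was at 35.7 CPM in the mitotic and 69.4 CPM in cells with none of the mitosis genes, C1s1 at 29.1 against 82.9 CPM, C1ra at 22.2 against 54.5 CPM, C4b at 4.62 against 17.6 CPM and C3 at 43.2 against 118 CPM. In muscle-marker cells of that library Serping1 was at 27.2 CPM, C1s1 at 28.8 CPM, C1ra at 18.1 CPM, C4b at 4.66 CPM and C3 at 31.3 CPM. In H3WT 5-Aza too, C1s1 was at 33.2 CPM in mitotic cells against 84.4 CPM in cells with none of the mitosis genes. It was at 40.4 CPM in the muscle-marker cells of H3WT 5-Aza. C3 in H3R26C DMSO did not differ in this way, at 62.4 CPM (57.6 to 67.6) in mitotic cells and 67.3 CPM (65.3 to 69.3) in cells with none of those genes.

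When cells with any mitosis gene or with 2 or more muscle markers were left out, 2208 cells of H3R26C 5-Aza remained, 1383 of them interferon-high. The ratio between states was then 1.14 for Serping1 (1.05 to 1.25), 1.05 for C1ra (0.953 to 1.16), 1.02 for C1s1 (0.941 to 1.11) and 1.09 for C4b (0.915 to 1.30). C3 was then lower in interferon-high cells, at 108 against 162 CPM, a ratio of 0.670 (0.629 to 0.714), and stood at 0.587 (0.395 to 0.842) in H3WT DMSO and 0.647 (0.558 to 0.748) in H3R26C DMSO. In H3WT 5-Aza it was 1.16 (1.06 to 1.28) for C3 and 1.01 (0.815 to 1.23) for Serping1.

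The differences between libraries in Serping1 were not smaller with these cells left out. It was 3.49 times higher with 5-Aza in H3R26C (3.26 to 3.73) and 3.25 times higher in H3R26C than in H3WT with 5-Aza (3.0 to 3.52). C1ra remained lower in H3R26C with 5-Aza, at 0.810 times (0.762 to 0.861), whereas C1s1 was at 1.02 times (0.970 to 1.08), and C4b at 0.828 times (0.744 to 0.921). With 5-Aza against DMSO in H3R26C, C4b was then 1.20 times higher (1.08 to 1.33) and C3 1.87 times (1.79 to 1.96). These gates were chosen after the data had been seen. The limit of at most 1 muscle marker was met by 3710 of 3710 H3WT DMSO cells and 4722 of 4727 H3R26C DMSO cells. With 5-Aza it was met by 2960 of 5993 H3WT cells and 3596 of 7619 H3R26C cells. The ratios of 5-Aza to DMSO here thus set a selected part of the treated cells against DMSO libraries that lost few cells for muscle RNA.

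**Figure D3:**
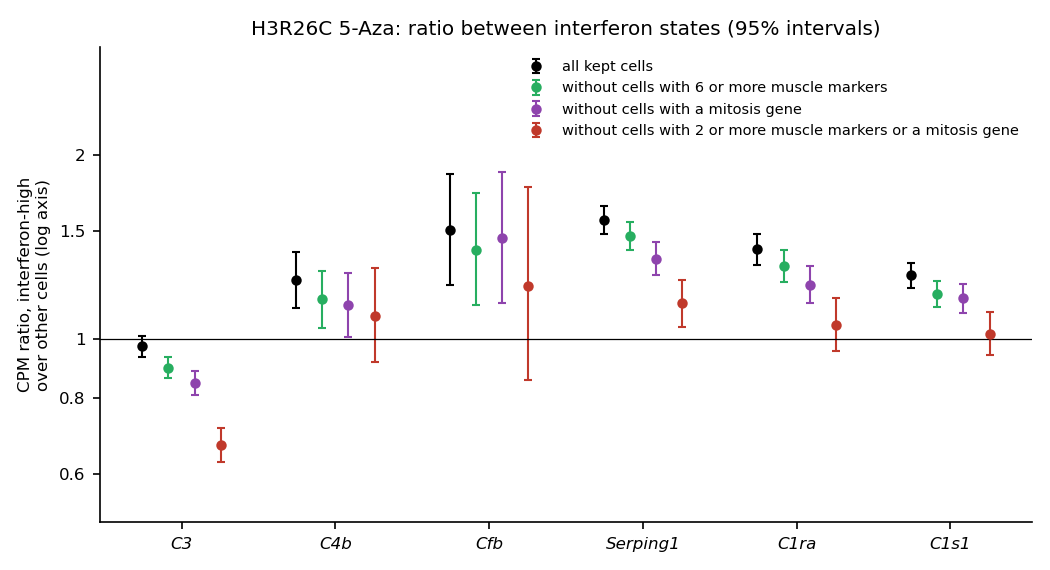
CPM of interferon-high over other cells in H3R26C 5-Aza (log axis) for each gene, with 95% intervals, in all kept cells and after 3 exclusions. These left out cells with 6 or more muscle markers, cells with a mitosis gene, and cells with 2 or more muscle markers or a mitosis gene. From all kept cells to the last exclusion, the ratio of Serping1 goes from 1.57 to 1.14 and that of C3 from 0.971 to 0.670.

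With 5-Aza, the genotypes differed within each state. Among interferon-high cells Serping1 was 2.86 times higher in H3R26C (2.52 to 3.26), at 69.6 against 24.3 CPM, and it was the 1 gene of 5 past 2-fold where 5.54% of 10168 genes were. Among other cells Serping1 was 2.21 times higher (2.06 to 2.36), at 44.5 against 20.2 CPM, again 1 of 5, against 7.15% of 10285 genes. Weighted to the make-up of H3WT 5-Aza, in which 12.3% of UMIs came from interferon-high cells, H3R26C 5-Aza would hold 47.6 CPM of Serping1, 2.30 times the H3WT level. C1ra was lower in H3R26C in both states, at 0.768 times (0.707 to 0.835) in interferon-high and 0.562 times (0.532 to 0.594) in other cells. C3 was at 0.959 times (0.897 to 1.03) and 1.16 times (1.11 to 1.20). The states were not matched in interferon RNA between genotypes. Irf7 was at 77.2 CPM in H3R26C against 28.2 CPM in H3WT among interferon-high cells, and at 11.4 against 3.84 CPM among other cells. The part of this in the ratios within states and in the weighted level was not tested.

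Among other cells alone, 5-Aza against DMSO gave 1 gene of 5 past 2-fold in H3WT, C3 at 4.12 times (3.91 to 4.36), against 2.57% of 9990 genes. It gave 2 of 5 in H3R26C, Serping1 at 2.28 times (2.13 to 2.43) and C1ra at 0.405 times (0.384 to 0.427), against 9.41% of 10243 genes. H3R26C against H3WT with DMSO gave C3, at 3.44 times (3.25 to 3.63), as 1 gene of 5, against 1.64% of 9918 genes. The direction of each of these was that of all kept cells. Without muscle or mitosis RNA, C1ra in other cells of H3R26C was no longer past 2-fold with 5-Aza, at 0.560 times (0.513 to 0.609), and with a state of at least 3 interferon genes Serping1 was not, at a log2 ratio of 0.91. Without muscle or mitosis RNA, C3 in other cells of H3R26C was 2.35 times higher with 5-Aza than with DMSO (2.22 to 2.48), from 1.39 times, and 1.80 times higher in H3R26C than in H3WT with 5-Aza (1.70 to 1.92).

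The number of interferon genes detected was also followed in cells thinned to the same depth. In H3R26C 5-Aza, Serping1 was at 35.1 CPM in the 1436 cells with 0 of the 9 genes, 49.5 CPM with 1, 70.7 CPM with 2 to 3, 77.6 CPM with 4 to 5 and 66.8 CPM in the 530 cells with 6 to 9. C1s1 went from 51.0 CPM with 0 genes to 91.3 CPM with 6 to 9, and C1ra from 36.1 to 55.9 CPM. C4b went from 10.7 to 16.2 CPM and Cfb from 2.93 to 7.17 CPM, the last on 19 UMIs. C3 was highest in the middle, at 120 CPM with 2 to 3 genes against 88.2 CPM with 0 and 88.3 CPM with 6 to 9. In H3WT 5-Aza the level of Serping1 was 20.4 CPM with 0 genes, 19.8 CPM with 1 and 27.2 CPM with 2 to 3, and rested on 8 UMIs with 4 to 5. C3 in H3R26C DMSO went the other way, from 72.5 CPM with 0 to 44.5 CPM with 2 to 3 genes. The share of mitotic and muscle-marker cells was not held fixed in these bins, and its part in them was not tested.

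**Figure D4:**
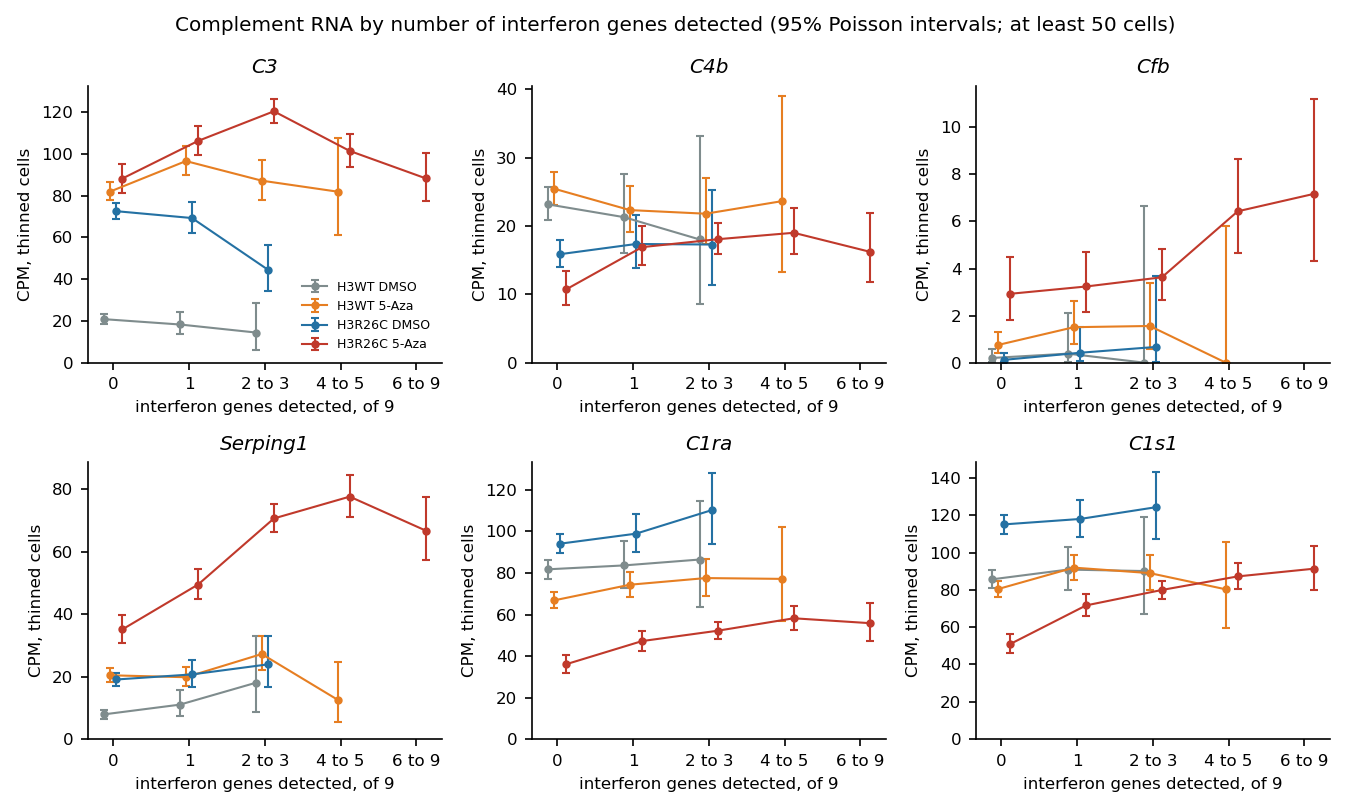
Level of each gene in CPM of thinned cells (vertical axes from 0) against the number of the 9 interferon genes detected, for each library, in bins of at least 50 cells with 95% Poisson intervals. Serping1 in H3R26C 5-Aza lies between 35.1 and 77.6 CPM, above the other libraries with 0, 1 and 2 to 3 genes. With 4 to 5 genes only H3WT 5-Aza is shown beside it, lower and on 8 Serping1 UMIs. With 6 to 9 genes no other library is shown.

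Whether the genes were found in the same cells was read as the number of thinned cells with a UMI of both, over the number given by their separate shares. In H3R26C 5-Aza this was above 1 for each of the 15 pairs, from 1.36 for Serping1 with C1s1 to 2.41 for C4b with Cfb, which rested on 20 cells. C3 and C4b were found together in 245 cells where 116 would be given by their shares (2.12 times), and C1ra and C1s1 in 665 cells against 430 (1.55 times). Within interferon-high cells of that library the same pairs stood at 1.90 and 1.44, and within other cells at 2.44 and 1.69. In the DMSO libraries C1ra with C1s1 stood at 1.18 in H3WT and 1.16 in H3R26C. C3 was not found with Serping1 more than their shares give in H3WT DMSO (0.758), H3WT 5-Aza (0.956) or H3R26C DMSO (0.966). The part of the mitotic and muscle-marker cells in these values was not tested.

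Of 48 other complement genes, each with a row in the matrices, 10 reached 20 CPM in a library and 16 had at most 3 UMIs in every library. C1qa, C1qb and C1qc, which encode the recognition part of the C1 complex, had no UMI in any library, so the proteases of C1 were read without C1q. No gene of the terminal pathway reached 20 CPM. Colec10, a collectin of the lectin pathway, was at 200 CPM in H3WT DMSO, 124 CPM in H3WT 5-Aza, 89.0 CPM in H3R26C DMSO and 22.3 CPM in H3R26C 5-Aza. Clu, which encodes the fluid-phase regulator clusterin, was higher with 5-Aza in both genotypes, at 191 and 483 CPM in H3WT and 149 and 498 CPM in H3R26C.

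Cfd, which encodes the factor D that cleaves factor B and is abundant in adipocytes, was high in a different pair of libraries, at 35.2 CPM in H3WT 5-Aza and 32.9 CPM in H3R26C DMSO against 5.99 CPM in H3WT DMSO and 6.64 CPM in H3R26C 5-Aza. In the genes that passed the 5 CPM minimum, 5-Aza against DMSO gave 2 of 10 higher and 0 lower in H3WT (Cfd, Clu), and 1 of 11 higher (Clu) and 2 lower (Colec10, Cfd) in H3R26C. H3R26C against H3WT gave 1 higher (Cfd) and 1 lower (Colec10) of 10 with DMSO, and 0 higher and 2 lower (Colec10, Cfd) of 10 with 5-Aza. The shares of all genes past 2-fold are those given above for the same comparisons. Cfd was also lower in interferon-high than in other cells of H3R26C 5-Aza, at 4.09 against 10.1 CPM, and of H3WT 5-Aza, at 4.90 against 39.5 CPM. In H3R26C DMSO it had 1 UMI in 275 interferon-high cells and 2763 UMIs in 4452 other cells. Cfd is 1 of the 10 adipocyte markers, and Fabp4, another, was at 18.0, 132, 56.4 and 89.7 CPM in the order H3WT DMSO, H3WT 5-Aza, H3R26C DMSO and H3R26C 5-Aza. The part of adipocyte-like cells in these values was not tested. The other genes that reached 20 CPM were C1rl, Masp1, Colec12, Cd59a, Cr1l, C1qbp and Lrp1, and none of them was past 2-fold between libraries.

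**Figure D5:**
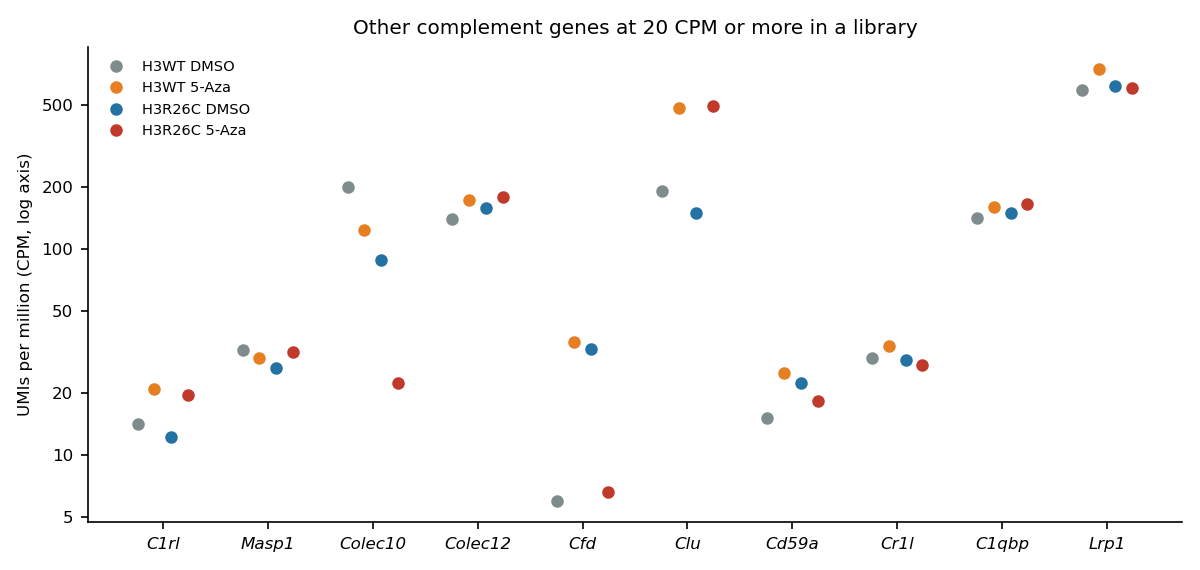
Levels in CPM (log axis) of the 10 other complement genes that reached 20 CPM in a library, with 1 point per library. Colec10 runs from 200 CPM in H3WT DMSO down to 22.3 CPM in H3R26C 5-Aza, and Cfd is high in H3WT 5-Aza and H3R26C DMSO.

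Regulators known to act on complement genes were set beside them. Of 15 genes of the interferon pathway, 2 of 12 that passed the minimum were past 2-fold higher and none lower with 5-Aza against DMSO in H3R26C (Irf7 and Irf9), where 8.15% of all genes were past 2-fold. In H3WT it was 0 of 11, against 2.53% of all genes. Irf7 was at 2.46, 6.84, 4.65 and 49.0 CPM in the order H3WT DMSO, H3WT 5-Aza, H3R26C DMSO and H3R26C 5-Aza. Irf7 is 1 of the 9 genes that define the interferon-high state, so its values are not independent of that state. In other cells alone, 1 of 12 was past 2-fold with 5-Aza in H3R26C (Irf7), against 9.41% of all genes. Irf1, a transcription factor induced strongly by interferon-gamma, stayed between 34.0 and 45.8 CPM. Of 9 targets of interferon-gamma, 3 of the 6 that passed the minimum were past 2-fold higher with 5-Aza against DMSO in H3R26C (Gbp3, Gbp7 and Igtp), against 8.15% of all genes, and 0 of 3 in H3WT, against 2.53%. In H3R26C against H3WT it was 1 of 4 with DMSO, against 1.64% of all genes, and the same 3 of 6 with 5-Aza, against 6.0%. None of these targets was past 2-fold lower. Between states, 6 of 7 were higher in interferon-high than in other cells of H3R26C 5-Aza, against 1.63% of all genes. It was 4 of 6 in H3WT 5-Aza, against 0.910%. In other cells alone, 0 of 5 were past 2-fold with 5-Aza against DMSO in H3R26C, against 9.41% of all genes. It was also 0 of 4 in H3R26C against H3WT with 5-Aza, against 7.15%. Because interferon-stimulated genes set the state, counts of these targets between states or in other cells are not independent of it. Ifnb1 had no UMI in any library, and Ifng had 5 in H3WT 5-Aza, 10 in H3R26C 5-Aza and none with DMSO. Of 15 acute phase and NF-kappaB genes, 10 passed the minimum and none was past 2-fold in the 4 comparisons of libraries. Within that list Cebpd, a C/EBP factor, was at 92.0, 184, 167 and 242 CPM, the same order of libraries as C3. Relb, Stat3 and Il6 of the list had that order too, with Il6 at most 1.39 CPM. The other genes of the list did not. Hp, at 59.8, 44.6, 81.2 and 44.0 CPM, and Il6st, at 189, 169, 224 and 138 CPM, were highest in H3R26C DMSO. How many of all genes had the order of C3 was not counted. A link of any of these genes to C3 was not tested.

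Over the 8 groups of library and state, the genes most like each complement gene were named by Pearson's r of the log2 level among 7341 genes, as a description of groups that share libraries. C1ra and C1s1 had an r of 0.972 with each other. For C3 the nearest were Atf1 (0.995), Arf5 and Efna5. The r leaves out the size of the differences. Over the 8 groups C3 ran from 12.3 to 96.0 CPM, Atf1 from 50.59 to 65.25 CPM and Arf5 from 231 to 286 CPM. C4b was nearest to Zfp91 (0.974), Nedd4l and Nr2f6, and Cfb to Agtrap (0.991), Wdr31 and Hdhd3. Cfb had 1 UMI in the interferon-high cells of each DMSO library. Serping1 was nearest to Ptgr1 (0.989), Sec61g and Gatd1. The nearest genes of C1ra were Msx1 (0.991), Meis2 and Ebf1, and those of C1s1 Prrg2 (0.993), Cbr3 and Wdr34. The r with C1ra and C1s1 was -0.51 and -0.49 for C3, -0.70 and -0.59 for Serping1, and -0.87 and -0.82 for Cfb.

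Barcodes with fewer than 1000 UMIs were read beside the kept cells. The matrices held only 6239 to 15002 barcodes per library. These low barcodes can therefore be poor cells as well as droplets with free RNA, and no profile of free RNA alone was available. C3 was found in the low barcodes at 10.1 CPM in H3WT DMSO, 47.4 in H3WT 5-Aza, 40.4 in H3R26C DMSO and 87.7 in H3R26C 5-Aza. Serping1 was at 7.34, 13.9, 22.1 and 65.8 CPM in the same order. C1ra, at 61.5, 27.1, 49.0 and 32.0 CPM, and C4b, at 8.26, 6.61, 1.23 and 11.9 CPM, did not follow the order of the kept cells, C4b on 1 to 29 UMIs per library. For a single UMI in a cell, RNA of that cell and free RNA cannot be told apart. No cell type in these libraries is known to lack the genes, so the shares of cells have no such control.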

How the data were processed

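Droplet single-cell RNA sequencing was measured in 4 libraries, 1 per condition. The deposited files hold UMI counts that the authors obtained from Cell Ranger 6 (6.1.0 in the matrix headers) on the mm10 reference as whole numbers without normalization. Their cell filter (at least 5000 UMIs, at least 1500 genes, at most 20% mitochondrial UMIs) was applied here, and it left 22049 cells with between 84060490 and 110712425 UMIs per library. No doublets were removed.

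Counts were summed per library and interferon state and given as CPM with 95% Poisson, binomial and conditional binomial intervals, which cover counting error alone. Ratios used a pseudocount of 1 CPM and a minimum mean of 5 CPM for calls. Cells were thinned to 5000 UMIs for shares. The tools were numpy 2.4.6, pandas 2.3.3, scipy 1.17.1 and matplotlib 3.10.9 in Python 3.11.15, and the scripts were tested on simulated data. The genes and lists were chosen with earlier results of these data known. Genes were named by fixed lists, those outside the 6 only at 20 CPM or more in a library or as examples of a list count. Some list genes below 20 CPM (C1qa, C1qb, C1qc, Alb, Ttr, Ahsg, Tyrobp, Fcer1g, Il6, Ifnb1, Ifng, Gbp3, Gbp7, Igtp) were named after their values were seen. Alternatives changed the cell filter, scaling, averaging, pseudocount, minimum, state threshold, thinning and the cells kept. The transgene cannot be told from endogenous H3 in these counts. The promoter regions came from RefSeq. Some listed genes are not reported here, and the list counts are without them.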

Additional observations from a re-analysis of the deposited data

Results flagged for a closer look

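The genotype difference went opposite ways with the treatments for both C1 proteases, each with 1 library per condition. H3R26C over H3WT was 1.17 (1.14 to 1.21) with DMSO and 0.689 (0.662 to 0.716) with 5-Aza for C1ra, and 1.23 (1.19 to 1.27) and 0.851 (0.823 to 0.880) for C1s1. Without cells with muscle or mitosis RNA the value with 5-Aza was 0.810 (0.762 to 0.861) for C1ra and 1.02 (0.970 to 1.08) for C1s1, so the opposite direction was then left for C1ra alone. Cfd went opposite ways in both directions of the design. Its ratio of 5-Aza to DMSO was 5.88 (5.35 to 6.47) in H3WT and 0.202 (0.186 to 0.219) in H3R26C. Its ratio of H3R26C to H3WT was 5.49 (5.00 to 6.04) with DMSO and 0.189 (0.174 to 0.205) with 5-Aza. For C3, interferon-high over other cells was 0.618 (0.431 to 0.859) in H3WT DMSO and 1.17 (1.09 to 1.25) in H3WT 5-Aza. The first rested on 36 UMIs in interferon-high cells. In H3WT 5-Aza the shares of thinned cells with a C3 UMI overlapped, at 19.5% (16.5 to 22.8) against 17.5% (16.5 to 18.6). The variance of C3 per thinned cell was 4.77 times the mean there, so the interval of 1.17 is too narrow for the spread between cells. The intervals cover counting error alone, the differences between the ratios were not tested, and with 1 library per condition the library and the condition cannot be told apart.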

How the results depend on the processing

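No paired analysis was possible because no condition had a second library. Counts of genes past 2-fold, of 5 tested, were near the threshold for Serping1 and C1ra, and 128 alternative counts were within 1.5 times the count reported while 26 were not. For 5-Aza against DMSO in H3WT the count was 1 in place of 2 with the stricter cell filter (at least 10000 UMIs, 2500 genes, at most 10% mitochondrial UMIs) and with scaling by the median ratio over genes. For 5-Aza against DMSO in H3R26C it was 2 in place of 1 with the stricter filter, the looser filter (at least 1000 UMIs and 500 genes), a pseudocount of 0.1 CPM, no expression minimum, or without shared barcodes. For H3R26C against H3WT with DMSO it was 2 in place of 1 with the mean of CPM per cell, a pseudocount of 0.1 CPM, or without cells with a mitosis gene or with muscle or mitosis RNA. In other cells, the same settings and thinned cells gave 2 in place of 1 for that comparison and for 5-Aza against DMSO in H3WT, where leaving out muscle-marker cells also gave 2. With no expression minimum Cfb was counted, and H3R26C against H3WT with 5-Aza gave 2 in place of 1, in all kept and in other cells. In other cells that count was also 2 with the stricter filter and 0 with a state of at least 3 interferon genes. The exclusions of mitosis-gene cells and of cells with muscle or mitosis RNA were added after the data were seen. Among values of single genes, 730 stayed within the 95% counting interval and 230 did not, and none that was past 2-fold changed sign. Some of the 730 could not move. The expression minimum does not enter the ratio of a gene, and the DMSO libraries had no cells with 6 or more muscle markers to leave out. C1s1 with 5-Aza in H3R26C against H3WT went from a log2 ratio of -0.23 to 0.03 without muscle or mitosis RNA. Fewer than 50 interferon-high cells were left for 3 alternatives in the DMSO libraries (at least 6 of 9 genes in H3WT, thinned states in both), which were not run. The depth limits Cfb, whose 21 and 23 UMIs with DMSO leave a wide interval.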
